A study of Homo sapiens with 2 samples.

Results

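Genes that spread over more than 200 kb of chromosome were followed in HCT116, a human colorectal carcinoma cell line. A gene was taken where its longest protein-coding RefSeq transcript on chromosomes 1 to 22 ran over more than 200000 bases from start to end, introns included, on the hg18 build. This held for 1159 of 18020 genes. The rule uses no expression value, but it was chosen with earlier results of these data known. The genes were read against 4354 genes of 20000 to 50000 bases. The poly(A) RNA came from 2 cultures, 1 library labelled USP49 knockdown, and 1 control library. Both cultures were of an HCT116 line that carries a tetracycline-inducible (T-REx) construct against USP49, a ubiquitin-specific protease that acts on histone H2B, grown with blasticidin and puromycin. The labels give harvest at 36 h of doxycycline in the same words for both libraries, do not say whether the control RNA came from uninduced cells, and do not say whether the line is 1 clone. The design asks how gene expression differs between these libraries.

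A long human gene is mostly intron. RNA polymerase II needs hours to cross the longest ones, so each finished messenger RNA costs a long stretch of elongation and many splicing events over great distances. Monoubiquitin on histone H2B is laid down behind elongating polymerase and is densest in transcribed gene bodies. Very long genes are common among the adhesion molecules, channels and synaptic proteins of neurons, and several of them lie at common fragile sites, where chromosomes break when replication is slowed.

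Promoters, the 250 bases before and 50 bases after a gene's start, are shown for 3 long genes among those with most fragments and for 3 of the longest genes listed at 0 in both libraries, because the first set held many fragments and the second was listed at 0, which can also be a failed estimate. The sequences are RefSeq's on GRCh38.p14, read 5′ to 3′ on the gene's strand, with each CpG in capitals. APP, the amyloid precursor protein, starts on the minus strand at chr21:26171079-26171378. MAP4, a microtubule-binding protein, starts on the minus strand at chr3:48088799-48089098, and SEPTIN9, a filament-forming GTPase, on the plus strand at chr17:77281249-77281548. Of the genes listed at 0, PTPRD, a receptor tyrosine phosphatase, starts on the minus strand at chr9:10612953-10613252. CTNNA3, an alpha-catenin of heart and testis, starts on the minus strand at chr10:67696146-67696445, and RBFOX1, a splicing factor of neurons and muscle, on the plus strand at chr16:6018774-6019073.
APP: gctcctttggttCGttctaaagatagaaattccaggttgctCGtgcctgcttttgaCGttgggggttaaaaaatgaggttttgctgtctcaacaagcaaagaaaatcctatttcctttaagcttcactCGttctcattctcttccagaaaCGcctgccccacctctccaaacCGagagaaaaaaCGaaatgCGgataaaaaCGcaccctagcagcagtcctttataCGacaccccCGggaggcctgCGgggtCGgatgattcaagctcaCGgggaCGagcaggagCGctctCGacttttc
MAP4: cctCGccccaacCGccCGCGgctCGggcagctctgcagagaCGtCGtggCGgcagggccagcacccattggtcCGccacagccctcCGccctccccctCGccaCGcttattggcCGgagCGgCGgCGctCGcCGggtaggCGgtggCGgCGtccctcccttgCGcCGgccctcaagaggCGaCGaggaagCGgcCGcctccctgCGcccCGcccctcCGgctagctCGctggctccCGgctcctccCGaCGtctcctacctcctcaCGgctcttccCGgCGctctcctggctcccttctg
SEPTIN9: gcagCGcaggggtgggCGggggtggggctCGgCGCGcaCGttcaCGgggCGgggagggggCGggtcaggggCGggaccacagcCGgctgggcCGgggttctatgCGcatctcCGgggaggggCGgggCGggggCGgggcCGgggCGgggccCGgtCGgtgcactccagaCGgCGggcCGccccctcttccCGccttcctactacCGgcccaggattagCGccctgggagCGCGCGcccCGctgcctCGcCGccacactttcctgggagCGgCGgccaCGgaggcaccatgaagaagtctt
PTPRD: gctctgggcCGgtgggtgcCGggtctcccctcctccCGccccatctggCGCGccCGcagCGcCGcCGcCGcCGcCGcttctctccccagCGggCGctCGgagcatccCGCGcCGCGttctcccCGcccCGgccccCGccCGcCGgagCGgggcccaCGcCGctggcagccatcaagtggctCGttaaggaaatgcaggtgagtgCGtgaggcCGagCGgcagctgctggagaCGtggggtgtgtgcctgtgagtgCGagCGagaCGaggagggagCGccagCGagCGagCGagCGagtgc
CTNNA3: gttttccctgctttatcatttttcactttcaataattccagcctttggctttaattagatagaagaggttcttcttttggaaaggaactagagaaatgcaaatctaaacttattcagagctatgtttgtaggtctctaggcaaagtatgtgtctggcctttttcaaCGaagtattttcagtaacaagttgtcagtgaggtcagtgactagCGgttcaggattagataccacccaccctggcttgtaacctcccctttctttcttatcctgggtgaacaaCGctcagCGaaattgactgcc
RBFOX1: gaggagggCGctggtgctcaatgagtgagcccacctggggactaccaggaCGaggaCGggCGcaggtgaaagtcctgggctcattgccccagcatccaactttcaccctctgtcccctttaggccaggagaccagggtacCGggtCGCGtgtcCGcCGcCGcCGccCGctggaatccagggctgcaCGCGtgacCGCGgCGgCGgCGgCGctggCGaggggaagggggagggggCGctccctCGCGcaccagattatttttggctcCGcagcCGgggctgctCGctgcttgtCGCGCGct

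The windows hold 17 CpG for APP, 37 for MAP4 and 36 for SEPTIN9, against 40 for PTPRD, 4 for CTNNA3 and 30 for RBFOX1. A CpG-dense promoter was thus found both in long genes with many fragments and in long genes listed at 0. Across the 540 of 628 measured long genes with a promoter in the table, the median was 28 CpG per window, and 68.5% held 20 or more. Among 192 of 247 long genes listed at 0 in both libraries the median was 19 and 49% held 20 or more. For genes of 20 to 50 kb the median was 27 in measured genes and 8 in genes listed at 0, of which 29.5% held 20 or more. The TATA-box letters TATAAA, searched on both strands, stood in 6.85% of the measured long genes' windows and in 4.69% of those listed at 0. In genes of 20 to 50 kb they stood in 3.96% of measured genes and in 13% of those listed at 0. Over all 27305 promoters in the table the share was 12%. These are descriptions of the windows only.

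The libraries held 19959687 fragments in the library labelled knockdown and 16378304 in control, a ratio of 1.22, and every comparison below is scaled to these totals. USP49 itself, the check of the labels, had 69 fragments on its named models in the library labelled knockdown against 206 in control, but on its RefSeq exons 69 in the library labelled knockdown against 46.5 in control. The direction thus depended on which models each library was given, so the libraries are called by their labels. Of 9 markers of colon epithelium, 7 had 100 or more fragments over both libraries, EPCAM at 148 FPKM in the library labelled knockdown and 155 FPKM in control, while VIL1 was listed at 0 in both. The 4 leukocyte markers summed to 0.217 FPKM in the library labelled knockdown and 9.57 FPKM in control, nearly all of it CD68, with PTPRC at 0 in both. The 3 endothelial markers summed to 0.0955 FPKM in the library labelled knockdown and 0.0792 in control, and the 4 fibroblast markers to 7.87 FPKM in the library labelled knockdown and 10.5 in control, nearly all of it COL1A1, with COL1A2 at 0 in both. Of 4 neuronal markers, RBFOX3 and STMN2 were at 0 in both libraries and SYT1 had 24.5 FPKM in the library labelled knockdown and 33.1 FPKM in control. A part of CD68 or other such markers in the results below was not tested.

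The long genes had a median span of 318393 bases, 17 exons and 5229 exonic bases, against 31141 bases, 9 exons and 2963.5 exonic bases in genes of 20 to 50 kb. Transcript length thus differed much less than gene span. The longest was CNTNAP2, a neuronal adhesion protein of the neurexin family, at 2304636 bases. Next to the limit, FREM2 at 200095, MGAT5 at 200363 and CDYL2 at 200500 bases lay just inside, and LRCH1 at 199880, FUT9 at 199644 and TULP4 at 199165 bases just outside. Long genes were unevenly placed, from 2 of 1355 genes on chromosome 19 (0.148%), CACNA1A and SIPA1L3, to 37 of 258 on chromosome 18 (14.3%). By the annotation, 583 lay on the plus and 576 on the minus strand, and 130 (11.2%) shared exonic bases with another gene. The fragments of those 130 are uncertain, since no step that marks the strand is described. Among the 130, and named below, are ASPH, PTPRG, UST, KCNQ1, USP34, MYCBP2, EPHB2, LPP, DLG1, PCDH7, PARG, PLCE1, FAM227B and CSTPP1.

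Long genes were less often measured than genes of 20 to 50 kb, the more so the longer they were. Of the 1159, 628 (54.2%) were measured, which here means 100 or more fragments over both libraries together on the gene's RefSeq models and on assembled models sharing an exact intron with it. Another 284 had 1 to 99 fragments, and 247 (21.3%) were listed at 0 in both libraries, which in these files can also be a failed estimate. In genes of 20 to 50 kb, 3010 (69.1%) were measured and 647 (14.9%) were listed at 0. The share measured was 73% at 50 to 100 kb, 71.5% at 100 to 200 kb, 65.4% at 200 to 300 kb, 52.6% at 300 to 500 kb, 39% at 500 to 1000 kb and 11.8%, or 6 of 51, above 1000 kb. It was thus about level from 20 to 200 kb and lower in each longer class. Genes of up to 20 kb were measured less often than the long genes as a whole, at 49.5% of 8268, with 29.9% listed at 0. Over all genes 10798 of 18020 were measured. A low share measured was thus not particular to long genes.

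**Figure D1:**
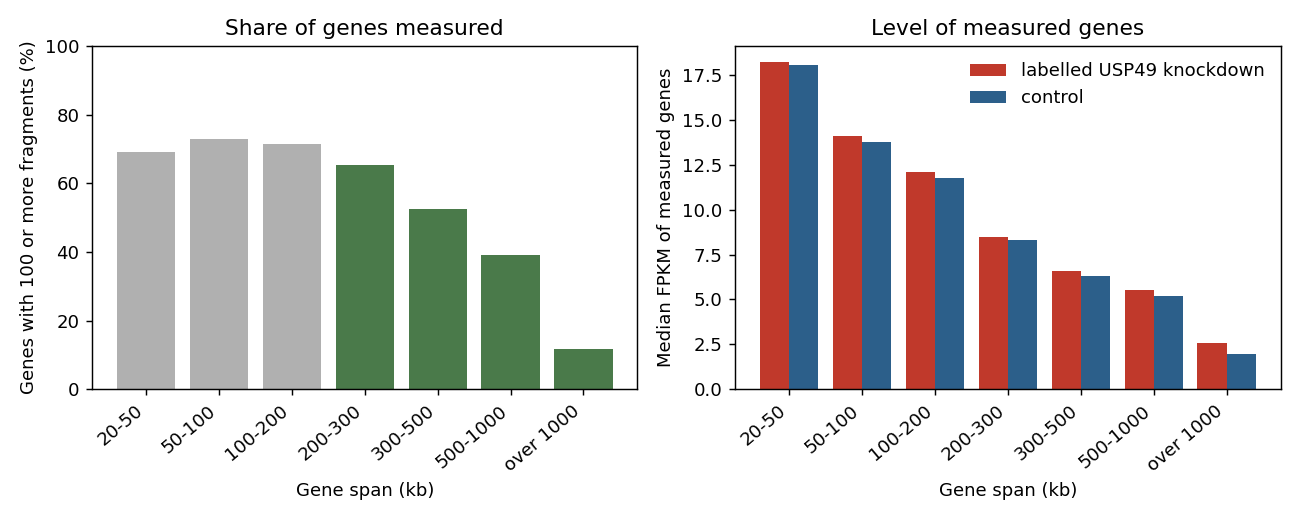
Left, percent of genes with 100 or more fragments over both libraries, by gene span in kb, with genes over 200 kb in green. Right, median FPKM of those genes in the library labelled knockdown (red) and in control (blue). The share falls to 11.8% above 1000 kb, and the median FPKM to 2.60 in the library labelled knockdown and 1.96 in control.

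Level per length was lower too. FPKM, fragments per kilobase of model and per 1000000 fragments of the library, had a median over measured genes of 8.48 in the library labelled knockdown and 8.34 in control at 200 to 300 kb. The medians were 6.60 FPKM in the library labelled knockdown and 6.33 in control at 300 to 500 kb, and 5.55 FPKM in the library labelled knockdown and 5.20 in control at 500 to 1000 kb. For the 6 measured genes above 1000 kb they were 2.60 FPKM in the library labelled knockdown and 1.96 FPKM in control. Genes of 20 to 50 kb stood at 18.2 FPKM in the library labelled knockdown and 18.1 FPKM in control. In between, the medians were 14.1 FPKM in the library labelled knockdown and 13.8 in control at 50 to 100 kb. At 100 to 200 kb they were 12.1 FPKM in the library labelled knockdown and 11.8 in control. The fall was thus not particular to genes over 200 kb. A minimum of 100 fragments admits lower FPKM in longer transcripts, and its part was not tested. All long genes together took 3.79% of the fragments of the library labelled knockdown (exact 95% interval 3.78 to 3.79%) and 3.72% of control (3.72 to 3.73%). These and all later intervals cover counting error only, as PCR copies are not independent molecules. In bulk RNA, fewer cells using a gene and less RNA in each cell cannot be told apart.

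The 6 measured genes above 1000 kb were PDE4D, FHIT, CCSER1, KCNIP4, WWOX and PTPRN2. FHIT, a diadenosine triphosphate hydrolase that lies at a common fragile site, had 132 fragments in the library labelled knockdown and 97 in control. WWOX, an oxidoreductase with WW domains at another such site, had 194 fragments in the library labelled knockdown and 146 in control. PDE4D, a cyclic AMP phosphodiesterase, had 230 fragments in the library labelled knockdown and 175 in control. Scaled to the library totals, the log2 ratios were 0.16 for FHIT, 0.12 for WWOX and 0.11 for PDE4D. Over the whole list of common fragile site genes, PTPRG and LPP, a LIM protein of focal adhesions, had most fragments, LPP with 1338 in the library labelled knockdown and 1085 in control. IMMP2L, a mitochondrial inner membrane peptidase, had 281 in the library labelled knockdown and 230 in control. The 5 longest genes of all were below the minimum. CNTNAP2 had 21 fragments in the library labelled knockdown and 19 in control. DLG2, a synaptic scaffold, had 11 in the library labelled knockdown and 2 in control. MACROD2, a mono-ADP-ribosylhydrolase, had 5 in the library labelled knockdown and 9 in control. PTPRD and CSMD1, a complement regulator of brain, were listed at 0 in both.

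The share of long genes measured differed between lists of roles. Over 12 lists of roles, which cover 440 of the 1159, the share measured ran from 80.4% for cytoskeleton and cell junction (41 of 51) to 11.1% for neural cell adhesion (5 of 45), beside 54.2% of all long genes. The share was 78.9% for ubiquitin ligases and proteases (15 of 19). It was 67.3% for trafficking and lysosome (33 of 49), 65.2% for RNA-binding proteins (15 of 23), 65.1% for transcription factors and coregulators (41 of 63) and 62.1% for kinases, phosphodiesterases and scaffolds (36 of 58). Below the 54.2% lay receptor tyrosine kinases and phosphatases at 42.9% (9 of 21), common fragile site genes at 37% (10 of 27), axon guidance at 31.8% (7 of 22) and ion channels and transmitter receptors at 18% (9 of 50). Spans differed between the lists too, with medians of 885 kb for neural cell adhesion, 1194 kb for common fragile site genes, 326 kb for cytoskeleton and cell junction and 283 kb for ubiquitin ligases and proteases. The part of span in these shares was not tested. The lists were written with earlier results of these data known, and the part of that choice in the shares was not tested. The lists overlap and hold some genes with another main role, such as VTI1A and TBC1D5, which act in membrane traffic, among the transcription factors, and RPTOR of the mTORC1 kinase complex among the RNA-binding proteins.

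**Figure D2:**
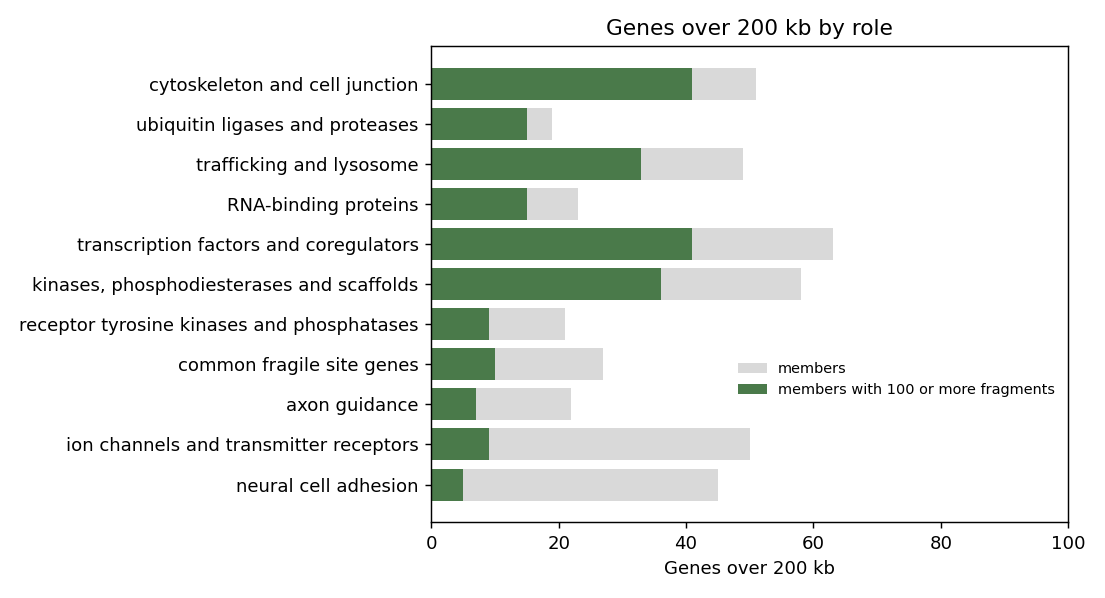
Number of genes over 200 kb in each role list shown (grey bars) and number of them with 100 or more fragments over both libraries (green bars). The cytoskeleton list has 41 of 51 measured and the neural cell adhesion list 5 of 45.

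The 8 long genes with most fragments all lay within 10% of equality after scaling to the library totals. ASPH, an aspartyl beta-hydroxylase of the endoplasmic reticulum, led with 16912 fragments in the library labelled knockdown and 13500 in control, a ratio after depth scaling of 1.03 (exact 95% interval 1.01 to 1.05). APP had 12040 fragments in the library labelled knockdown and 10220 in control, a ratio of 0.967 (0.941 to 0.993). MAP4 had 10896 fragments in the library labelled knockdown and 9187 in control, a ratio of 0.973 (0.946 to 1.00). Per length, ASPH stood at 197 FPKM in the library labelled knockdown and 191 in control, APP at 180 FPKM in the library labelled knockdown and 180 in control and MAP4 at 87.4 FPKM in the library labelled knockdown and 89.3 in control. SEPTIN9, with 9063 fragments in the library labelled knockdown and 8134 in control, had the lowest ratio of the 8 genes with most fragments, 0.914 (0.887 to 0.942). ABLIM1, an actin-binding LIM protein, had 8852 fragments in the library labelled knockdown and 7336 in control. MACF1, a spectraplakin that links actin and microtubules, had 7988 in the library labelled knockdown and 6687 in control. SPTBN1, a beta-spectrin under the plasma membrane, had 7337 in the library labelled knockdown and 6209 in control. LRBA, a BEACH protein of vesicle traffic, had 6813 in the library labelled knockdown and 5340 in control, the highest ratio of the 8 at 1.05 (1.01 to 1.09).

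Among adhesion genes, ALCAM, a cell adhesion molecule of epithelia and leukocytes, stood alone in level. It had 5954 fragments in the library labelled knockdown and 4686 in control, or 61.5 FPKM in the library labelled knockdown and 58.9 in control. TENM3, a teneurin, had 391 fragments in the library labelled knockdown and 368 in control. PCDH7, a protocadherin, had 321 in the library labelled knockdown and 212 in control. CNTN1 and ASTN2 were the other two measured. Of the 45 adhesion genes, 25 were listed at 0 in both libraries, among them NRXN3, a presynaptic neurexin, DSCAM, CDH13, and the contactins CNTN3, CNTN4, CNTN5 and CNTN6. In the axon guidance list NEO1, a netrin receptor, had 1893 fragments in the library labelled knockdown and 1674 in control. EPHB2, an ephrin receptor of the intestinal crypt, had 768 in the library labelled knockdown and 703 in control. SEMA3A, a secreted repellent, had 270 in the library labelled knockdown and 254 in control. The netrin receptor DCC and the SLIT receptors ROBO1 and ROBO2 were listed at 0 in both libraries. SLIT2, a ligand of ROBO receptors, was past 1.5-fold higher, with 136 fragments in the library labelled knockdown and 67 in control.

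Channels and receptors were mostly below 100 fragments. ITPR2 and ITPR1, which release calcium from the endoplasmic reticulum, had most fragments, with ITPR2 at 577 in the library labelled knockdown and 463 in control and ITPR1 at 482 in the library labelled knockdown and 424 in control. CACNA1B, a pore subunit of N-type calcium channels, had 195 in the library labelled knockdown and 170 in control. Of the 50, 16 were listed at 0 in both libraries, including the glutamate receptors GRIN2A, GRIA1 and GRM5. PTPRK, a receptor phosphatase of cell contacts, led the receptor kinases and phosphatases with 1701 fragments in the library labelled knockdown and 1310 in control. IGF1R, the receptor of insulin-like growth factors, had 662 in the library labelled knockdown and 644 in control.

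Of the 63 long genes on the list of transcription factors and coregulators 65.1% were measured, beside 69.1% of genes of 20 to 50 kb. TEAD1, the DNA-binding partner of YAP, had 4988 fragments in the library labelled knockdown and 4019 in control. TCF7L2, the partner of beta-catenin in colon cells, had 4520 in the library labelled knockdown and 3845 in control. RUNX1 had 1509 in the library labelled knockdown and 1481 in control, and 6 of the 63, among them SOX5, TRPS1 and ZFPM2, were listed at 0 in both. CDC42BPA, a kinase downstream of CDC42, had 4587 fragments in the library labelled knockdown and 3756 in control. DOCK5, an exchange factor of RAC, had 3462 in the library labelled knockdown and 2934 in control. TRIO, an exchange factor of RAC, had 2547 in the library labelled knockdown and 2221 in control.

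Among kinases and scaffolds STK39, which phosphorylates ion cotransporters, had 3906 fragments in the library labelled knockdown and 3012 in control. DLG1, a polarity scaffold, had 3179 in the library labelled knockdown and 2557 in control. FER, a non-receptor tyrosine kinase, had 3362 in the library labelled knockdown and 2110 in control, a ratio of 1.31 (exact 95% interval 1.24 to 1.38), while on its RefSeq exons the log2 ratio was −0.42. Of the ubiquitin list USP34, a deubiquitinase of the Wnt pathway, had 5680 fragments in the library labelled knockdown and 4408 in control. BIRC6, a giant inhibitor of apoptosis with ubiquitin-conjugating activity, had 3992 in the library labelled knockdown and 3016 in control. MYCBP2, an E3 ligase, had 3653 in the library labelled knockdown and 2708 in control. Of RNA-binding proteins MSI2, a translational regulator of progenitor cells, had 5431 fragments in the library labelled knockdown and 4352 in control. SND1, a nuclease with Tudor and staphylococcal nuclease domains, had 4742 in the library labelled knockdown and 4126 in control. RPTOR had 2820 in the library labelled knockdown and 2523 in control. These 3 lay within 10% of equality after scaling. In the trafficking list VTI1A, a SNARE of the trans-Golgi, had 3243 in the library labelled knockdown and 2553 in control. GALNT2, which starts mucin-type O-glycans, had 2472 in the library labelled knockdown and 2159 in control. Both again lay within 10% of equality. SYT1, the synaptic calcium sensor and itself a long gene, had 2276 fragments in the library labelled knockdown and 1815 in control, and RIMS1, which acts with it at synapses, was listed at 0 in both libraries.

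Between the libraries, long genes differed little as a group. The median log2 ratio of the library labelled knockdown over control was 0.02 in the 628 measured long genes, 0.01 in the 3010 genes of 20 to 50 kb and 0.0016 over all 10798 measured genes. In 531 long genes (84.6%) the log2 ratio lay within 0.25 of equality, against 83.6% of genes of 20 to 50 kb. Their middle 95% lay between −0.36 and 0.64, and that of genes of 20 to 50 kb between −0.67 and 0.59. By span the median was 0.01 at 200 to 300 kb, 0.03 at 300 to 500 kb and 0.01 at 500 to 1000 kb. The 6 genes above 1000 kb had a median of 0.11 with a single gene, PTPRN2, below 0. With 1 library per group none of these has a replicate check or a p-value.

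Past 1.5-fold, 7 long genes were lower in the library labelled knockdown (1.11% of the 628) and 19 higher (3.03%). Over all measured genes the shares were 3.22% lower and 3.09% higher, and in genes of 20 to 50 kb 2.86% lower (86 genes) and 2.56% higher (77 genes). In either direction 4.14% of long genes, 5.42% of genes of 20 to 50 kb and 6.32% of all genes were past 1.5-fold. The share depended on fragments. It was 12.3% of long genes with 100 to under 300 fragments, 4.89% with 300 to under 1000 and 1.93% with 1000 or more, against 17.5%, 9.97% and 2.96% in genes of 20 to 50 kb. By role, 0 of 33 measured trafficking genes and 0 of 15 ubiquitin genes passed 1.5-fold, against 2 of 41 cytoskeletal genes, both higher, and 3 of 9 channel genes, 1 lower and 2 higher. Of other lists, common fragile site genes, receptor kinases and phosphatases, and transcription factors each had 1 lower, axon guidance and RNA-binding proteins each had 1 higher, kinases and scaffolds had 1 of each, and neural adhesion had 0. The medians of the 12 lists lay between −0.12 for receptor kinases and phosphatases and 0.06 for the ubiquitin list. These counts are of few genes, and at 4.14% of long genes a count of 0 in a list of 15 or 33 says nothing about the list. With RefSeq models only, 96 of 565 measured long genes were lower and 98 higher past 1.5-fold. The share over all genes was not taken with RefSeq models only, so nothing particular to long genes is read from these counts.

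**Figure D3:**
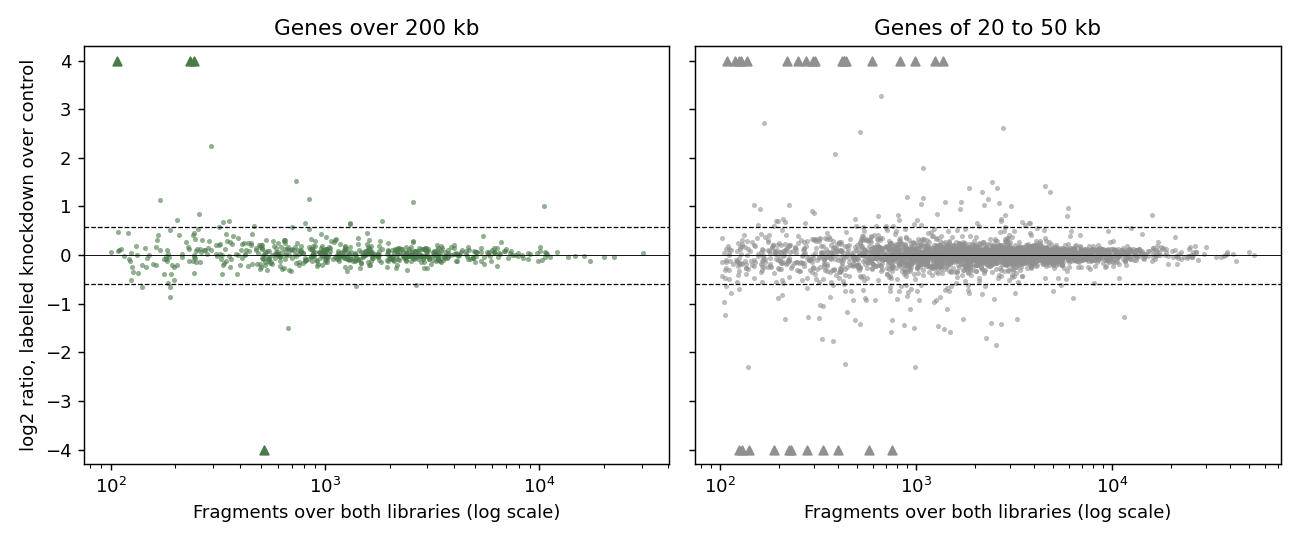
log2 ratio of the library labelled knockdown over control against fragments over both libraries (log scale), for measured genes over 200 kb (left) and of 20 to 50 kb (right). Dashed lines mark 1.5-fold and triangles mark ratios drawn at the limit of 4 because they lie beyond it. Of long genes 7 lie below and 19 above the dashed lines, and 10 of these 26 have under 300 fragments.

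Each library was assembled separately, so a gene could be given different models in each. A second measure, chosen after the first counts had been seen, spread each model's fragments evenly over the model and took those on the gene's RefSeq exons, from models of either strand. On exons 4 of 651 long genes were lower (0.614%) and 4 higher (0.614%) past 1.5-fold, 1.23% in all. Over all genes it was 0.934% lower and 0.619% higher, 1.55% in all, and in genes of 20 to 50 kb 0.585% each way, 1.17% in all. The share of long genes was thus near that of the others. Of the 26 long genes past 1.5-fold by fragments on named models, 6 were past it in the same direction on exons. Another 16 lay within 0.25 of equality on exons. In 6 genes, 5 of them among these 16, the sign was the opposite on exons. The genes below that are outside the 8 lowest and 8 highest were picked after their values were seen.

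Of the 6, CSTPP1, which regulates tubulin polyglutamylation at the centriole, stood at 0 on its named models in the library labelled knockdown against 520 fragments in control. On its exons it had 43.1 fragments in the library labelled knockdown and 561 in control. WDR27, a WD-repeat protein, had 234 fragments in the library labelled knockdown and was listed at 0 in control, and on exons 234 in the library labelled knockdown against 31.9 in control. KCNIP4, a calcium-binding subunit of Kv4 potassium channels, had 244 fragments in the library labelled knockdown and was listed at 0 in control, and on exons 90.2 in the library labelled knockdown against 48.9 in control. The 6 were chosen for having the same direction by both measures, so the shared direction is no further result. In CSTPP1, WDR27 and KCNIP4 the differences were smaller on exons than on named models, which were at 0 in 1 library. CSTPP1 shares exonic bases with another gene, so its fragments are uncertain.

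CACNA1D, the pore subunit of an L-type calcium channel, had 250 fragments in the library labelled knockdown and 43 in control, a ratio of 4.77 (exact 95% interval 3.44 to 6.76). All 250 lay on 1 assembled model of 6 exons at chr3:53809983-53823877, at the end of the gene, and the 43 on a RefSeq model of 49 exons at chr3:53504116-53821532 (hg18, plus strand). On exons the values were 125 in the library labelled knockdown and 43 in control. CACNA1A, the pore subunit of P/Q-type channels, was lower, with 61 fragments in the library labelled knockdown against 79.1 in control, and GAS7, an F-BAR protein that shapes membranes, with 82 in the library labelled knockdown against 106 in control. Both had few fragments, and their ratios, 0.634 (0.446 to 0.896) for CACNA1A and 0.635 (0.470 to 0.855) for GAS7, have wide intervals.

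On exons past 1.5-fold but listed at 0 on named models in both libraries were CSGALNACT1 and PDE8B. CSGALNACT1, which starts chondroitin sulfate chains, had 188 exon fragments in the library labelled knockdown against 40.1 in control. PDE8B, a cyclic AMP phosphodiesterase, had 74.3 in the library labelled knockdown against 92.1 in control.

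The other large ratios on named models shrank on exons. FHIP1A, a protein of the dynein adaptor complex with FTS and Hook, had 201 fragments in the library labelled knockdown and 467 in control, a ratio of 0.353 (exact 95% interval 0.298 to 0.418). Its control model was an assembled one of 13125 bases and its model in the library labelled knockdown the RefSeq one of 4576 bases, and the log2 ratio on exons was 0.02. HDAC4, a class IIa histone deacetylase, had 616 fragments in the library labelled knockdown against 782 in control, a ratio of 0.646 (0.581 to 0.719), and −0.15 on exons as log2. PTPRG, a receptor phosphatase with a carbonic anhydrase-like domain, had 1183 in the library labelled knockdown against 1480 in control, a ratio of 0.656 (0.607 to 0.708), and −0.12 on exons. The PTPRG model with most fragments was 6765 bases long in the library labelled knockdown and 9224 bases in control.

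On the higher side, UST, a sulfotransferase of dermatan sulfate, had 570 fragments in the library labelled knockdown and 161 in control, yet its summed FPKM were 6.57 in the library labelled knockdown and 7.42 in control. The control fragments lay on an assembled model of 1374 bases without the last exon, and those of the library labelled knockdown on the RefSeq model of 4391 bases. ANKRD11, a chromatin cofactor with ankyrin repeats, had 7455 fragments in the library labelled knockdown against 3059 in control, a ratio of 2.0 (1.92 to 2.09). With unspliced and other assembled models that overlap its exons added, ANKRD11 had 7455 in the library labelled knockdown against 6618 in control, and its log2 ratio on exons was −0.04. FRMD5, a FERM protein of cell contacts, had 1865 in the library labelled knockdown against 721 in control, and with such models added 1865 in the library labelled knockdown against 1560 in control. EPB41L4A, a relative of band 4.1, had 615 in the library labelled knockdown against 225 in control and a log2 ratio of 0.09 on exons. NDUFAF2, an assembly factor of respiratory complex I, had 178 in the library labelled knockdown against 81.1 in control and −0.12 on exons. PARG, which degrades poly(ADP-ribose), had 107 fragments in the library labelled knockdown and was listed at 0 in control. With assembled models that PARG shares with another gene counted, it had 711 in the library labelled knockdown against 538 in control. Of the remaining 11 genes CAMK1D was lower, and ARHGAP42, CAMK4, CORIN, DAB2IP, FAM227B, INPP4B, PLCE1, RBMS1, SLIT2 and ZDHHC14 were higher. Their log2 ratios on exons lay between −0.47 for CAMK1D and 0.44 for SLIT2.

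KCNQ1, ASTN2, SLC44A5 and ZNF704 completed the 8 lowest and did not pass 1.5-fold. KCNQ1, a potassium channel of epithelia and heart, had 187 fragments in the library labelled knockdown and 201 in control, a ratio of 0.763 (exact 95% interval 0.622 to 0.936). ASTN2, which acts in neuronal migration, had 159 in the library labelled knockdown and 170 in control. SLC44A5, a choline transporter-like protein, had 118 in the library labelled knockdown and 125 in control. ZNF704, a zinc finger protein, had 623 in the library labelled knockdown and 642 in control, a ratio of 0.796 (0.712 to 0.890). On exons their log2 ratios were −0.38 for KCNQ1, −0.23 for ASTN2, 0.17 for SLC44A5 and −0.33 for ZNF704.

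The assemblies also show over what length the long genes were read. Of the fragments on measured long genes, 83.4% in the library labelled knockdown (exact 95% interval 83.3 to 83.5%) and 82.1% in control (82.0 to 82.2%) lay on models that themselves span more than 200 kb. With RefSeq models only, the order turned, at 88.5% in the library labelled knockdown and 89.5% in control. In 331 of 624 genes with fragments in both libraries the share was 90% or more in both. In 29 it was under 10% in both, so that models of 200 kb or less carried nearly all the gene's fragments. In some of these, such as LAMA2 and RNF220, the leading model was an assembled one in both libraries. Whether the shorter models lie in the RNA or in the assembly was not tested. The share differed by 20 points or less in 498 genes, was over 20 points higher in the library labelled knockdown in 61 and over 20 points lower in 65.

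**Figure D4:**
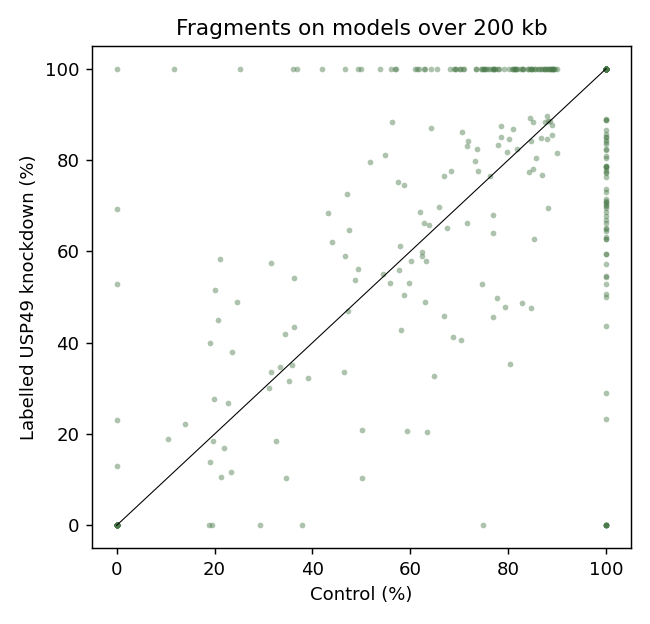
Percent of a gene's fragments on models spanning more than 200 kb, in the library labelled knockdown (vertical axis) and in control (horizontal axis), 1 point per measured gene over 200 kb with fragments in both. The line marks equality, and 331 genes lie at 90% or more in both libraries.

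RUNX1, a runt-domain transcription factor, is an example of the 29. All 1509 of its fragments in the library labelled knockdown and all 1481 in control lay on a RefSeq model of 100890 bases, while the gene spans 261498. PDE4D, with a gene span of 1519060 bases, had its leading model at 70474 bases in both, and PDE4B at 42470 of 582070. LAMA3, a laminin chain of epithelial basement membranes, had its leading model at 82046 of 265468 bases in both. MKLN1, a subunit of the CTLH ubiquitin ligase, had all of its fragments, 3527 in the library labelled knockdown and 2610 in control, on a model of 168804 bases.

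In 8 genes the leading form was long in one library and short in the other. FRMD4B, a FERM protein, had 90% or more on long models in the library labelled knockdown and under 10% in control. The reverse held for CACNA1D, CDIN1, DAPK1, DNAH6, FAM227B, SIK3 and WDR72. SIK3, a salt-inducible kinase, had 577 fragments in the library labelled knockdown, all on a model of 99468 bases, against 436 in control, whose leading model spanned 254919. WDR72, which acts in enamel formation, had 529 in the library labelled knockdown against 418 in control, on a leading model of 8186 bases in the library labelled knockdown and of 245922 in control. DAPK1, a death-associated kinase, had 224 in the library labelled knockdown against 214 in control. Its leading model spanned 22136 bases in the library labelled knockdown and 210794 in control. CDIN1 had 341 in the library labelled knockdown against 252 in control. Its leading model spanned 169644 bases in the library labelled knockdown and 230638 in control. DNAH6, an axonemal dynein chain, had 72 in the library labelled knockdown against 68 in control. Its leading model spanned 189398 bases in the library labelled knockdown and 303135 in control. In CDIN1 and DNAH6 the shorter model thus lay not far under the 200 kb limit. FAM227B had 124 in the library labelled knockdown against 46.3 in control. Whether these switches lie in the RNA or in the assembly was not tested.

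Unspliced models inside introns were the other measure taken along long genes. They were taken whatever their strand. Whether their RNA comes from the gene around them or from a separate transcript was not tested. Assembled models of 1 exon that lie wholly in introns numbered 606 in the library labelled knockdown and 541 in control over the long genes. They held 23519 fragments in the library labelled knockdown and 20888 in control, a ratio after depth scaling of 0.924 (exact 95% interval 0.907 to 0.941). Genes of 20 to 50 kb had 62106 fragments in the library labelled knockdown and 55976 in control, a ratio of 0.910 (0.900 to 0.921), and all genes a ratio of 0.927 (0.921 to 0.933). Per megabase of intron and per 1000000 library fragments, long genes held 2.50 fragments in the library labelled knockdown and 2.71 in control, about an order of magnitude less than the 24.5 in the library labelled knockdown and 26.9 in control found over genes of 20 to 50 kb. The models were assembled separately in each library, so these sums and ratios move with how much was assembled, and the intervals cover counting error only. Over long genes the models covered 448 kb in the library labelled knockdown and 411 kb in control. Per covered kb they held 52.5 fragments in the library labelled knockdown and 50.8 in control, before scaling to the library totals. Genes of 20 to 50 kb held fewer per covered kb, 44.4 in the library labelled knockdown and 42.3 in control. The part of the long genes' lower level in the difference per megabase was not tested. The ratio of sums over long genes was 1.13 without scaling to the library totals and 0.888 with models of whole fragments only. For genes over 300 kb it was 0.968. No difference between the libraries is read from these ratios.

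When each gene was cut into 3 equal segments from its 5′ end, the first held 9657 fragments on 191 models in the library labelled knockdown and 8440 on 178 in control. The middle held 6232 on 134 models in the library labelled knockdown and 5294 on 111 in control, and the last 7630 on 281 in the library labelled knockdown and 7154 on 252 in control. The numbers of models differed in each segment, so no ratio is given. In 10 equal bins along the gene, fragments per 1000000 in long genes were highest in bin 2, at 233 in the library labelled knockdown and 238 in control. They were lowest in bin 8, at 36.7 in the library labelled knockdown and 43.2 in control, and were 176 in the library labelled knockdown and 201 in control in bin 10. CHCHD3 alone set which bin was highest. Without CHCHD3, left out after the data were seen, bin 2 held 163 in the library labelled knockdown and 168 in control, and bin 10 was highest in both.

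**Figure D5:**
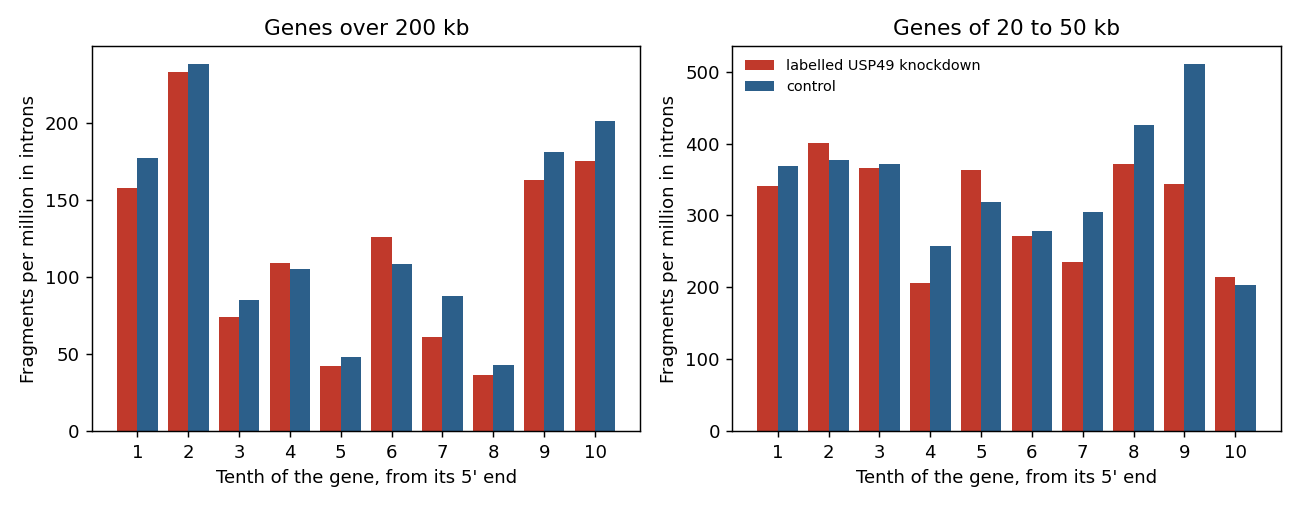
Fragments per 1000000 on unspliced assembled models inside introns, in 10 equal bins along the gene from its 5′ end, in the library labelled knockdown (red) and in control (blue), for genes over 200 kb (left) and of 20 to 50 kb (right). The axes differ in range, and in long genes bin 2 is highest in both libraries with CHCHD3, and bin 10 without it.

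Intronic models were found in 319 long genes, and 108 of them had 100 or more intronic fragments over both libraries. Of the 108, 22 were past 1.5-fold lower (20.4%) and 9 higher (8.33%) in the library labelled knockdown, with a median log2 ratio of −0.15. These counts too compare models assembled separately in each library. The shares were 26.1% lower and 21.9% higher over all 972 genes with as many intronic fragments, and 29.5% lower and 23.9% higher over the 305 of 20 to 50 kb. On their named models 14 of the 108 were listed at 0 in both libraries. CHCHD3, a subunit of the mitochondrial MICOS complex, had most, 1384 fragments in the library labelled knockdown and 1152 in control. The leading model lay at chr7:132369954-132371451 in the library labelled knockdown and at chr7:132370522-132371394 in control (hg18). FER had 916 in the library labelled knockdown and 735 in control, of which 858 in the library labelled knockdown and 664 in control lay on 1 model each, at chr5:108148699-108148882 in the library labelled knockdown and chr5:108148699-108148884 in control. The FER models are short, 184 bases in the library labelled knockdown and 186 in control, with the same start. The CHCHD3 models differ at both ends between the libraries.

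PDE8B had 841 intronic fragments in the library labelled knockdown and 701 in control, each on 1 model, at chr5:76621914-76623371 in the library labelled knockdown and chr5:76621914-76623372 in control, while its named models were listed at 0 in both. FMN2, a formin, had 486 in the library labelled knockdown and 417 in control, and was listed at 0 on named models too. PDE3A, a cardiac and platelet phosphodiesterase, had 590 intronic fragments in the library labelled knockdown and 537 in control beside 16 in the library labelled knockdown and 8 in control on named models. ASIC2, an acid-sensing channel, had 416 in the library labelled knockdown and 347 in control. CSMD1 had 324 in the library labelled knockdown and 275 in control. Named models of both genes were at 0. In these 5 and in CHCHD3 and FER the ratio after scaling lay between 0.902 and 1.02. Other genes differed far more. Over the 30 long genes with most intronic fragments the ratio ran from 0.235 to 13.0, and the number of models often differed. PALLD, an actin-bundling protein, had 363 on 4 models in the library labelled knockdown against 23 on 2 in control. TCF7L2 had 488 on 12 models in the library labelled knockdown against 36 on 3 in control. ANKRD11 had 84.9 on 3 models in the library labelled knockdown against 297 on 4 in control. ZFPM2, a cofactor of GATA factors with named models at 0, had 712 on 17 models in the library labelled knockdown against 384 on 7 in control. Whether these lie in the RNA or in the assembly was not tested. These genes were picked after their values were seen.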

How the data were processed

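Poly(A) RNA of HCT116 cells was sequenced in 1 library labelled USP49 knockdown and 1 control library. The deposited files are Cufflinks transcript assemblies of each library, holding RefSeq and newly assembled models with a value named FPKM and its interval bounds, per the file headers. Per the submitters' processing notes, the build was hg18 and the tools included Cufflinks, Bowtie, TopHat, bedtools, Picard and SAMtools, with no version named. The deposited FPKM values proved not to be divided by depth. In loci with 1 model the interval, taken as 2 Poisson SD, gave a whole fragment count within 0.02 in 17271 of 18337 loci of the library labelled knockdown (94.2%) and 16039 of 16971 of control (94.5%), and the deposited value equalled fragments over length less 47 bases. Fragments were the whole count where a locus gave one, and for other models were recovered by this relation. Unspliced assembled models without a whole count, intronic ones included, instead had another constant taken off their length. It was the median seen in such models in loci with 1 model, 252 bases in the library labelled knockdown and 246 in control. All fragments were scaled to library totals, which gives other values than the FPKM the authors deposited. With 1 library per group no test was run, and ratios have exact Clopper-Pearson 95% intervals on rounded fragments and no p-value. Log2 ratios had 0.5 fragments added.

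RefSeq accessions took symbols of the GRCh38.p14 annotation, 39376 by accession, 529 by the symbol in the files and 496 by a shared intron, while 299 had none and were left out. The members and lists were chosen with earlier results of these data known. Named genes were USP49, the 8 lowest and 8 highest ratios with 200 or more fragments, the 8 with most fragments, the 5 longest, and 3 per list; other genes were picked after their values were seen, as was the measure on RefSeq exons. Alternatives were another fold, minimum, span limit, scaling, pseudocount and choice of models. Scripts used Python 3.11.15, pandas 2.3.3, numpy 2.4.6 and scipy 1.17.1, and were tested on simulated data. Some results on long genes are not reported here.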

Additional observations from a re-analysis of the deposited data

How the results depend on the processing

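No paired analysis was possible because each group has 1 library, and for the same reason no library could be left out. The difference in median log2 ratio from genes of 20 to 50 kb was 0.0818 at 100 to under 300 fragments, 0.0397 at 300 to under 1000 and −0.0106 at 1000 or more. At 2-fold, 2 long genes were lower in the library labelled knockdown and 8 higher. With 30 fragments as minimum 18 of 706 were lower and 28 higher, and with 300 there were 4 of 547 lower and 12 higher. With RefSeq models only, 96 of 565 were lower and 98 higher, and the median log2 ratio was 0.0398. Models over 200 kb then held 88.5% of fragments in the library labelled knockdown and 89.5% in control. For the counts at another fold, minimum, scaling, pseudocount or choice of named models, shares over all genes were not taken. Nothing particular to long genes is read from them. Counting models shared by several genes gave 83.1% in the library labelled knockdown and 81.7% in control, and adding other models over exons gave 82.6% in the library labelled knockdown and 80.4% in control. Without depth scaling 2 were lower and 48 higher, with a median of 0.30 and an intronic ratio of 1.13, which follows from the unequal totals. By summed FPKM 14 were lower and 22 higher with a pseudocount of 1, and 20 lower and 28 higher with 0.1. With a span over 300000 bases 292 genes were measured, 4 lower and 9 higher, with 86.7% of fragments on models over 200 kb in the library labelled knockdown, 86.6% in control and an intronic ratio of 0.968. With a span over 150000 bases 1014 were measured, 18 lower and 28 higher, the shares were 45.7% in the library labelled knockdown and 45.4% in control, since models of 150 to 200 kb cannot count, and the ratio was 0.968. Without genes that share exonic bases the shares were 84.7% in the library labelled knockdown and 83.0% in control and the ratio 0.944. After seeing the data, RefSeq exons gave 4 lower and 4 higher, and intronic models with whole fragments only gave a ratio of 0.888. Where no cause is given, the cause was not tested. Under the other settings run, the counts stayed within 1.5 times those in the text. Low depth limits most the long genes with under 300 fragments, whose ratios have the widest intervals.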
